A study of Mus musculus with 6 samples.

Results

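The 61 genes described here encode the cytosolic HSP70, HSP110 and HSP90 chaperones, their DNAJ partners, the BAG co-chaperones and the heat shock factor Hsf2. They were taken by symbol from 18193 genes measured by probe sets of 1 gene symbol: every gene named Dnaja, Dnajb, Dnajc, Hspa, Hsp90aa, Hsp90ab, Hsph or Bag with a number, without Hspa5, Hspa9, Dnajb9, Dnajb11 and Dnajc3, plus the heat shock factors. Hsp90ab1 and Hsf1, which the same rule asks for, are not analysed here. The rule used names only and no measured value. RNA came from C2C12 cells, an established line of mouse myoblasts, grown for 72 h in 100 mm dishes either in basal DMEM (untreated, 3 samples) or in DMEM made without sodium pyruvate and then given 50 mM sodium pyruvate (pyruvate, 3 samples). Every dish also had 10% fetal bovine serum, 4 mM glutamine and 1% antibiotics. No genotype or transgene separates the groups, both of which are undifferentiated by their labels, and no control for the added sodium was analysed here. Each sample was read on 1 Affymetrix mouse array, and by its title the study asked about mitochondrial biogenesis.

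HSP70 proteins bind short hydrophobic stretches of unfolded clients in a cycle driven by ATP. J-domain proteins (DNAJ) bring clients and trigger ATP hydrolysis, whereas HSP110 and BAG proteins act as nucleotide exchange factors that release the client, and HSP90 takes over many clients for late folding steps. When misfolded protein accumulates, heat shock factors bind inverted nGAAn units in promoters and raise transcription of many of these genes. In muscle, the same chaperones serve the folding and turnover of contractile proteins.

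Of the 61 genes, 50 had a brightest probe set above the signal filter, a mean log2(signal + 16) of 5.53 over all arrays, and were tested. With pyruvate 18 of them rose and 5 fell, at an adjusted p under 0.05 in limma's moderated test. That is 36.0% and 10.0% of those tested, where 20.7% of all 10685 genes tested rose and 14.5% fell (35.1% in either direction). The changes were small: the median log2 change was 0.13 beside 0.03 for all genes tested (0.080 for the members when each gene was the average of its probe sets), the range was -0.42 to 0.81, and 3 members changed by 0.5 or more. For 29 of the 50 the untreated and pyruvate signals did not overlap, 25 being higher and 4 lower. Over all genes 48.6% did not overlap, 28.6% higher and 20.0% lower. After quantile normalization 15 members rose and 4 fell, beside 19.9% and 14.7% of all genes, and after cyclic loess normalization 16 rose and 4 fell, beside 19.8% and 15.1%. None of the 11 members below the filter was called without it in limma by its brightest probe set, where 9.72% of all 18193 genes rose and 6.95% fell. Hspa1b, Dnajb4, Dnajc12, Bag2, Hspa4l, Dnajc9 and Bag1 rose, and Dnajc21 and Dnajc2 fell, under each of the 18 other processing settings that were run. The number that fell was the less stable count, at 2 to 4 when any single array was left out. When each gene was the average of its probe sets it was 7, while 17 rose, 12 of them among the 18. The calls of Bag5, Bag6, Dnaja3, Dnajb5, Dnajb6, Dnajc4, Dnajc7, Dnajc13, Dnajc14 and Dnajc24 were each lost without at least 1 array, and that of Dnajc24 without any of the 6.

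**Figure D1:**
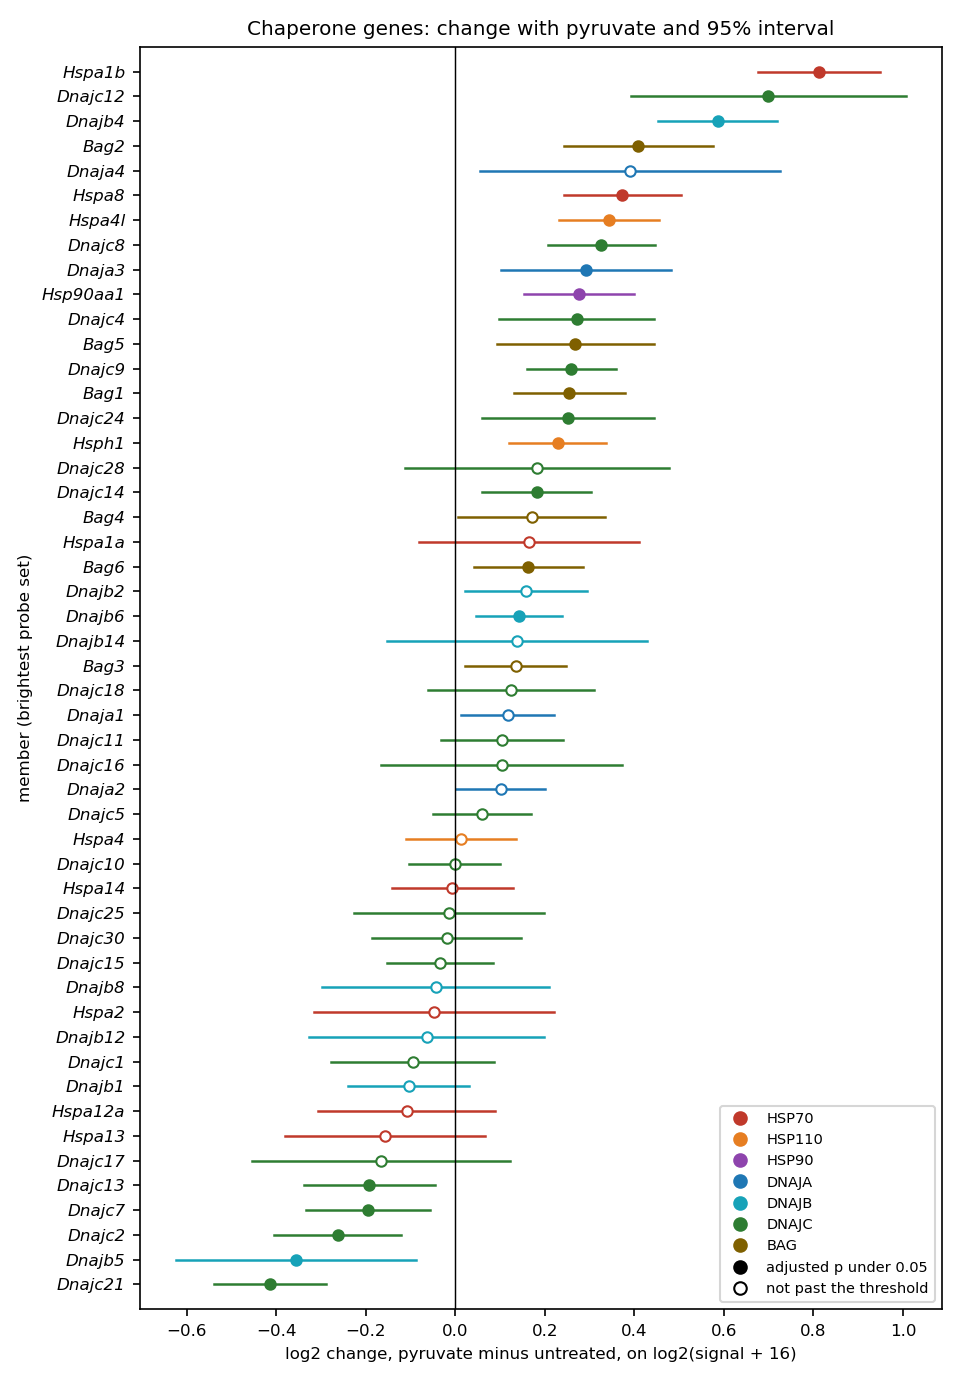
Log2 change (pyruvate minus untreated, x axis, on the log2(signal + 16) scale) with its 95% interval for the 50 tested members, by brightest probe set and coloured by family; filled points passed an adjusted p of 0.05. Hspa1b stands at the top at 0.81 and Dnajc21 at the bottom at -0.42, and most members lie between 0 and 0.4.

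The filter and scaling set limits on what could be seen. All arrays had been scaled by the authors to a trimmed mean signal of 150, the arrays of a group correlated at 0.985 to 0.991 across probe sets, and the members' coefficient of variation had a median of 4.87% in untreated and 4.41% in pyruvate arrays. Very bright genes as a class were higher with pyruvate. The 458 genes with a mean log2 signal from 11 to 14 had a median change of 0.22, beside 0.02 for the 2373 genes from 9 to 11. Of the members, Hspa8, Hsp90aa1, Dnaja1 and Dnaja2 lie in the bright class. Their values are therefore also given after quantile normalization, under which the medians of bright genes lay near 0, and elsewhere only where it changes a call.

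Muscle differentiation moved with the groups. Of 9 markers of differentiating muscle 8 fell, their signals summing to 6074 to 6581 on the untreated arrays and 761 to 938 on the pyruvate arrays, and the ninth, Ckm, did not pass. Markers of myoblasts summed to 6014 to 6347 and 5476 to 5803, with Myod1 and Msc higher, Myf5 and Cdh15 lower, and Pax7 below the filter. Des, the brightest of them, was at -0.08 (adjusted p = 0.21) and was lower after quantile normalization, at -0.14 (adjusted p = 0.034). Of 4 fibroblast and fat markers and 5 immune and endothelial markers, only Pdgfra and Cd68 lay above the filter and neither was called, with sums of 64.7 to 105 on any array. Pdgfra, at 0.46 (adjusted p = 0.055), passed after quantile normalization (0.51, adjusted p = 0.036). No marker was at 0 throughout. The part of the lower muscle markers in the chaperone values was not tested, and in bulk RNA fewer cells of a type and less RNA per cell cannot be told apart. With 72 h as the only time, a loss with pyruvate and a gain in untreated cells cannot be told apart either.

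Among the HSP70 genes the stress-inducible Hspa1b rose most, and the constitutive Hspa8 gave the least settled value. Of 9 HSP70 genes 7 were tested, 2 rose and 0 fell, with a median of -0.01, where 20.7% of all genes tested rose and 14.5% fell. The brightest Hspa1b probe set read 710, 736 and 814 on the untreated arrays and 1296, 1288 and 1418 on the pyruvate arrays. Every pyruvate array lay above every untreated one, with means of 753 ± 53.9 and 1334 ± 73.0 (SD, n = 3 arrays each). The mean signal was 1.77-fold higher, which is 0.81 on the log2 scale (SE 0.06, limma adjusted p = 4.3e-06). The other Hspa1b probe sets moved further, by 1.18 on the log2 scale, from 644 ± 81.2 to 1474 ± 94.1, and by 1.28, from 455, 435 and 457 to 1142, 1075 and 1133 (limma adjusted p = 3.7e-08). All 3 probe sets were therefore called higher, and the brightest gave the lowest estimate of the change.

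Hspa1a, the neighbouring inducible copy, was read by 1 dim probe set, at 69.3, 79.1 and 72.7 in untreated and 75.2, 84.4 and 94.4 in pyruvate cells. The groups overlapped, and the log2 change was 0.16 (95% interval -0.08 to 0.41, limma adjusted p = 0.30). Both genes encode nearly the same protein, and one of the Hspa1b probe sets carries the suffix that Affymetrix gives to sets whose probes resemble other transcripts. Which copy the Hspa1b probe sets read cannot be told apart here. The difference between the Hspa1a and Hspa1b changes was not tested.

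The upstream sequences of this pair are shown because their promoters are almost the same and match the unit that heat shock factors bind. In the RefSeq windows of mouse build GRCm38.p6, 247 of the 250 bases before the annotated start are identical (98.8%). The search was for a facing pair of units, GAA and TTC or TTC and GAA with any 2 bases (NN) between them, which matches itself on the other strand. Capitals mark the match, 97 to 104 bases before the start in each gene. Both pieces are on the minus strand, at chr17:34959311-34959366 for Hspa1b and chr17:34972229-34972284 for Hspa1a.
Hspa1b: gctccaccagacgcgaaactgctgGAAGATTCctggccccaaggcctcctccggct
Hspa1a: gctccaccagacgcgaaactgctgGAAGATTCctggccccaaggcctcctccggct
The stretch is the same letter for letter.

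Hspa8 encodes the constitutive HSC70, which folds new proteins and strips clathrin coats. Its brightest probe set read 5168, 5390 and 5020 in untreated and 6738, 7197 and 6274 in pyruvate cells, a rise of 0.37 (SE 0.06, limma adjusted p = 0.00068). The groups did not overlap, yet after quantile normalization the same probe set was lower, at -0.12 (adjusted p = 0.036), and after cyclic loess normalization higher, at 0.17 (adjusted p = 0.018). A second bright Hspa8 probe set changed by 0.37 and then by -0.02 after quantile normalization (adjusted p = 0.70). Both of these sets carry the suffix, described above for Hspa1b, of probes that resemble other transcripts. The other Hspa8 probe sets do not carry it, and neither rose. One, from 3069 ± 236 to 2754 ± 497, was at -0.17 as scaled by the authors (adjusted p = 0.27). It was lower after quantile normalization, at -0.34 (adjusted p = 0.023). The other, a dimmer set, was at -0.01 (adjusted p = 0.96). No direction for Hspa8 thus held under every scaling.

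The other HSP70 genes showed no call on their brightest probe sets. Hspa2, known best from the testis, was at 150 ± 23.4 and 144 ± 22.3, and the atypical Hspa12a at 174 ± 18.9 and 160 ± 8.04. Hspa13, which resides in the endoplasmic reticulum, had a brightest probe set at -0.16 (adjusted p = 0.27) with overlapping groups, while 2 of its other 3 rose, by 0.27 and 0.45. Hspa14, the HSP70 of the ribosome-associated complex, was at 568 ± 17.2 and 566 ± 41.3. A dimmer Hspa14 probe set went from 138, 198 and 172 to 58.8, 69.5 and 88.3, a fall of 1.07 (limma adjusted p = 0.00022), the largest fall of any tested member probe set. Hspa1l and Hspa12b were dim and below the filter, Hspa1l at 8.27 ± 6.39 and 6.10 ± 4.33 and Hspa12b at 4.33 ± 2.48 and 3.10 ± 1.32.

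**Figure D2:**
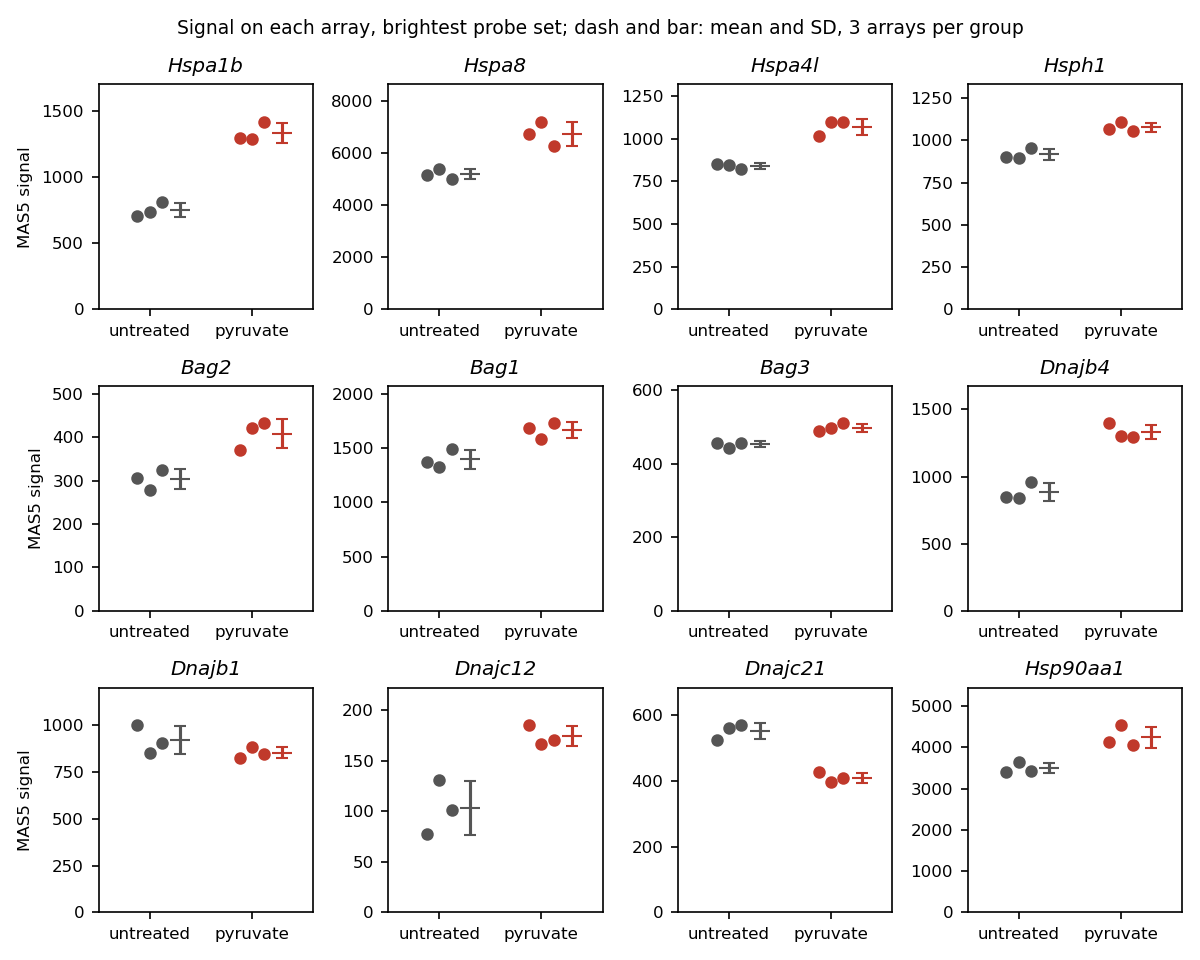
MAS5 signal (y axis, from 0) of 12 members on each array, by brightest probe set, untreated in grey and pyruvate in red, with the mean and SD of 3 arrays beside the points. Hspa1b, Dnajb4 and Dnajc12 separate widely, Hspa8 and Hsp90aa1 less, Dnajc21 is lower with pyruvate, and the Dnajb1 arrays overlap.

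Of the HSP110 genes, which act as nucleotide exchange factors, Hspa4l and Hsph1 rose on the brightest probe set and Hspa4 did not pass. The shares of all genes tested were 20.7% higher and 14.5% lower. Hspa4l, an HSP110 protein also called APG-1, read 854, 844 and 820 in untreated and 1015, 1098 and 1097 in pyruvate cells, without overlap, a rise of 0.34 (SE 0.05, limma adjusted p = 0.00039). All 5 of its probe sets were higher in the mean, 3 of them past the threshold, with changes from 0.07 to 0.53. Hspa4 was at 1293 ± 73.9 and 1304 ± 55.7, 0.01 on the log2 scale (95% interval -0.11 to 0.14, adjusted p = 0.88), and its sign turned under both quantile and cyclic loess normalization. Hsph1, also called HSP105, gave opposite results: its brightest probe set rose from 918 ± 33.1 to 1077 ± 28.4 (0.23, adjusted p = 0.0045), and the other fell from 729 ± 7.88 to 613 ± 38.7 (-0.25, adjusted p = 0.0061). Neither probe set overlapped between groups, so no single direction can be given for Hsph1.

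All 6 BAG genes had higher pyruvate arrays without overlap on the brightest probe set, and 4 of them rose past the threshold, with a median of 0.21. Over all genes tested 28.6% were higher without overlap and 20.7% rose past the threshold. Bag2, which restrains the ubiquitin ligase CHIP, rose most: 307, 279 and 324 in untreated and 370, 422 and 431 in pyruvate cells, a rise of 0.41 (SE 0.08, limma adjusted p = 0.0018). Bag1, which links HSP70 to the proteasome, read 1368, 1328 and 1491 against 1689, 1585 and 1727 (0.25, adjusted p = 0.0054). Bag5 rose by 0.27 (adjusted p = 0.025) and Bag6, a triage factor for membrane proteins, by 0.16 (adjusted p = 0.044). Bag3, a heat-inducible partner of HSPB8 in autophagy of damaged muscle proteins, stood at 457, 442 and 456 against 487, 496 and 509, 0.13 higher on the log2 scale (95% interval 0.02 to 0.25, adjusted p = 0.069). Bag4 was at 0.17 (adjusted p = 0.10), and its other probe sets were at -0.04 and -0.21 without passing.

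In the DNAJA and DNAJB classes, which resemble bacterial DnaJ and deliver clients to HSP70, Dnajb4 changed most. Its brightest probe set read 850, 839 and 960 in untreated and 1396, 1302 and 1298 in pyruvate cells, 1.51-fold higher in the mean. On the log2 scale it rose by 0.59 (SE 0.06, limma adjusted p = 3.5e-05), and a second probe set rose by 0.72 (adjusted p = 3.8e-05). The remaining set, dim at 36.9 ± 6.04 and 39.6 ± 17.2, did not pass. By contrast Dnajb1, the classical heat-inducible HSP40, read 1002, 854 and 906 against 826, 884 and 849, with overlap. It stood at -0.10 (95% interval -0.24 to 0.03, adjusted p = 0.23), and its other probe set was at 0.05 (adjusted p = 0.45).

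Dnajb6, which suppresses aggregation of polyglutamine proteins, rose by 0.14 on its brightest probe set (adjusted p = 0.029), and quantile normalization ended the call (0.09, adjusted p = 0.11). Another of its probe sets was at -0.14 without overlap and did not pass (adjusted p = 0.069). The remaining sets, at 0.17 and 0.21, did not pass either. Dnajb5 fell from 97.7 ± 12.2 to 72.8 ± 9.52 (-0.36, adjusted p = 0.044), as did another of its 3 probe sets (-0.37, adjusted p = 0.037), though neither passed after quantile normalization (adjusted p = 0.055 for the brightest). Dnajb2, Dnajb8, Dnajb12 and Dnajb14 did not pass, with changes between -0.06 and 0.16, and Dnajb3, Dnajb7 and Dnajb13 were below the filter.

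Of the 4 DNAJA genes only Dnaja3, the mitochondrial member, passed on its brightest probe set, from 223 ± 28.7 to 275 ± 6.30 (0.29, adjusted p = 0.024). Among all genes tested 20.7% rose and 14.5% fell. Dnaja4 had 3 probe sets higher in the mean. The brightest read 82.9, 139 and 95.9 against 138, 126 and 161 and overlapped (0.39, adjusted p = 0.073), whereas the dimmer sets did not overlap and rose by 0.43 (adjusted p = 0.0062) and 0.75 (adjusted p = 0.0013). Dnaja1, the main farnesylated partner of HSC70, was at 0.12 on the brightest probe set (adjusted p = 0.081) and at 0.04 after quantile normalization (adjusted p = 0.53), while a second rose by 0.33 (adjusted p = 0.00035) and another fell by 0.16 (adjusted p = 0.0498). Quantile normalization (adjusted p = 0.056) and leaving out the filter (adjusted p = 0.10) each ended that call. Dnaja2, a close relative of Dnaja1, was at 0.10 (adjusted p = 0.11) and at -0.02 after quantile normalization, and 1 dim probe set of it fell by 0.62 (adjusted p = 0.0036).

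Pieces upstream of 5 of these genes are shown for the same motif, in capitals, to set the sequences beside the changes above. Dnajb4 is at chr3:152193846-152193883 on the minus strand and Dnaja4 at chr9:54699445-54699538 on the plus strand. Dnaja1 is at chr4:40722320-40722375 and Dnajb6 at chr5:29735828-29735888, both on the plus strand, and Hsph1 at chr5:149636338-149636393 on the minus strand. The capitals of Dnajb6 hold both orders of the pair overlapping, that is 3 units in a row, either GAA, TTC and GAA or, on the other strand, TTC, GAA and TTC, each with NN between.
Dnajb4: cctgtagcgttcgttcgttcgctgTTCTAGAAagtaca
Dnaja4: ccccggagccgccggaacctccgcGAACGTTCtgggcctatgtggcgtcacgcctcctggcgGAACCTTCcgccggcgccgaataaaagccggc
Dnaja1: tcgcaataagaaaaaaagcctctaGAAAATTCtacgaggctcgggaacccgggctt
Dnajb6: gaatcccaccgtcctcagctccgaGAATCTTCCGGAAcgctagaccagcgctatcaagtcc
Hsph1: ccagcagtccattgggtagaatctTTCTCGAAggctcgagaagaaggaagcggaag
Hsph1 also holds the 3-unit form, just after its annotated start. In Dnajb4 the match lies 7 to 14 bases before the start.

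The motif was common in promoters at large. RefSeq windows of 300 bases, 250 before and 50 after an annotated start, were matched for 49 of the 61 members. The pair was found in 11 of these (22.4%) and in 16.97% of the 27025 genes of the table. The 3-unit form was found in 2 of 49 members (4.08%) and in 0.66% of all genes. Of the 9 tested members with the pair, 4 rose on the brightest probe set, 0 fell and the median was 0.16. The 4 were Hspa1b, Dnajb4, Dnajb6 and Hsph1. Quantile normalization ended the Dnajb6 call, and Hsph1 has no single direction, as given above. Of the 31 tested without it, 11 rose, 4 fell and the median was 0.10. Among all tested genes with a window, 21.3% of those with the pair rose and 21.0% of those without. A match says only that the letters are present.

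DNAJC proteins share a J domain and little else, and they serve many sites in the cell. Of 26 genes 21 were tested, 6 rose and 4 fell, with a median of 0.06, where 20.7% of all genes tested rose and 14.5% fell. Dnajc12, a partner of the aromatic amino acid hydroxylases, rose most: 77.3, 131 and 101 in untreated and 185, 167 and 171 in pyruvate cells, from a modest level but without overlap. It rose by 0.70 on the log2 scale (SE 0.14, limma adjusted p = 0.0029). Dnajc8, a protein of the splicing machinery, went from 1690 ± 107 to 2120 ± 53.1 (0.33, adjusted p = 0.00090), but its second probe set was at -0.12 (adjusted p = 0.078). Dnajc9, a histone chaperone, went from 804 ± 10.2 to 966 ± 11.8 (0.26, adjusted p = 0.0013). Dnajc4 rose by 0.27 (adjusted p = 0.022) and Dnajc24, needed to make diphthamide on elongation factor EF2, by 0.25 (adjusted p = 0.048).

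The members that fell included J proteins of the ribosome. Dnajc21, which helps mature the large ribosomal subunit, read 523, 561 and 569 in untreated and 425, 395 and 407 in pyruvate cells. The groups did not overlap, and the log2 change was -0.42 (SE 0.06, limma adjusted p = 0.00025); a second probe set fell by 0.55 (adjusted p = 0.00021). Dnajc2, the ribosome-bound J protein that pairs with Hspa14, went from 592 ± 37.6 to 491 ± 29.9 (-0.26, adjusted p = 0.0093), while its other probe set was at -0.04 (adjusted p = 0.63). Dnajc13, an endosomal J protein, fell by 0.19 (adjusted p = 0.046), a call that quantile normalization ended (adjusted p = 0.066). Dnajc7, a TPR protein that binds both HSP70 and HSP90, fell by 0.19 (adjusted p = 0.035) although its arrays overlapped.

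Dnajc14, which takes receptors through the secretory pathway, could not be given a direction. Its brightest probe set rose from 420 ± 16.3 to 478 ± 13.3 (0.18, adjusted p = 0.027), and its other probe sets fell by 0.33 and 0.37 (adjusted p = 0.0020 and 0.0046). The brightest Dnajc10 probe set was at 1010 ± 20.7 and 1008 ± 18.3, while the other 2 rose by 0.20 and 0.48 (adjusted p = 0.011 and 0.0041). Dnajc10 is a reductase of the endoplasmic reticulum. Dnajc5, the cysteine string protein of secretory vesicles, was at 0.06 (adjusted p = 0.39), with 1 of its other 4 probe sets lower (-0.20, adjusted p = 0.038). The other 9 tested DNAJC genes, Dnajc1, Dnajc11, Dnajc15, Dnajc16, Dnajc17, Dnajc18, Dnajc25, Dnajc28 and Dnajc30, did not pass, with changes from -0.17 to 0.18. The 5 DNAJC genes below the filter, Dnajc5b, Dnajc5g, Dnajc6, Dnajc22 and Dnajc27, had no call without it on the brightest probe set. A second Dnajc22 probe set, at 1.7, 2.1 and 6.6 against 10.7, 12.9 and 21.9, was called higher without the filter (adjusted p = 0.037), at signals far below it.

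Not every member is cytosolic, whatever the family name. By background knowledge, and sorted after their values were seen, 9 of the members work in the endoplasmic reticulum: Dnajc1, Dnajc10, Dnajc14, Dnajc16, Dnajc18, Dnajc25, Dnajb12, Dnajb14 and Hspa13. Only Dnajc14 was called on its brightest probe set, with changes in the 9 from -0.16 to 0.18. This count depends on the sorting and on taking the brightest probe set. Dimmer probe sets of Hspa13 and Dnajc10 rose, and those of Dnajc14 fell. Of 4 in the mitochondrion, Dnaja3, Dnajc11, Dnajc15 and Dnajc30, 1 rose. The remaining 37 tested members, of cytosol, nucleus or other sites, held 16 of the 18 that rose and all 5 that fell, with a median of 0.16. This class also holds most of the tested members, and the difference between compartments was not tested. Of all genes tested 20.7% rose and 14.5% fell.

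How firmly a gene can be read depended on its probe sets. The members had 146 probe sets, of which 112 passed the filter, 31 higher and 14 lower. Among all probe sets tested 16.3% were higher and 15.9% lower, 32.2% in all. Of the 34 members with over 1 tested probe set, 15 had all on one side of 0 and 19 did not. In 7 members at least 2 probe sets were higher and none lower: Hspa1b, Hspa4l, Hspa8, Hspa13, Dnaja4, Dnajb4 and Dnajc10. For Dnajb5 and Dnajc21 at least 2 were lower and none higher. Of the 7, Hspa8, Hspa13 and Dnajc10 also had probe sets below 0. After quantile normalization Hspa8 was called lower by its brightest probe set and another, as given above. How often probe sets concur over all genes was not computed. Dnajc14 and Hsph1 had calls in both directions, as did Dnaja1 through the borderline fall given above. The median spread between the probe sets of a gene, as highest minus lowest change in these 34 members, was 0.27 on the log2 scale. The members' median change of 0.13 is signed and covers all 50 tested, so the values are unlike measures.

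**Figure D3:**
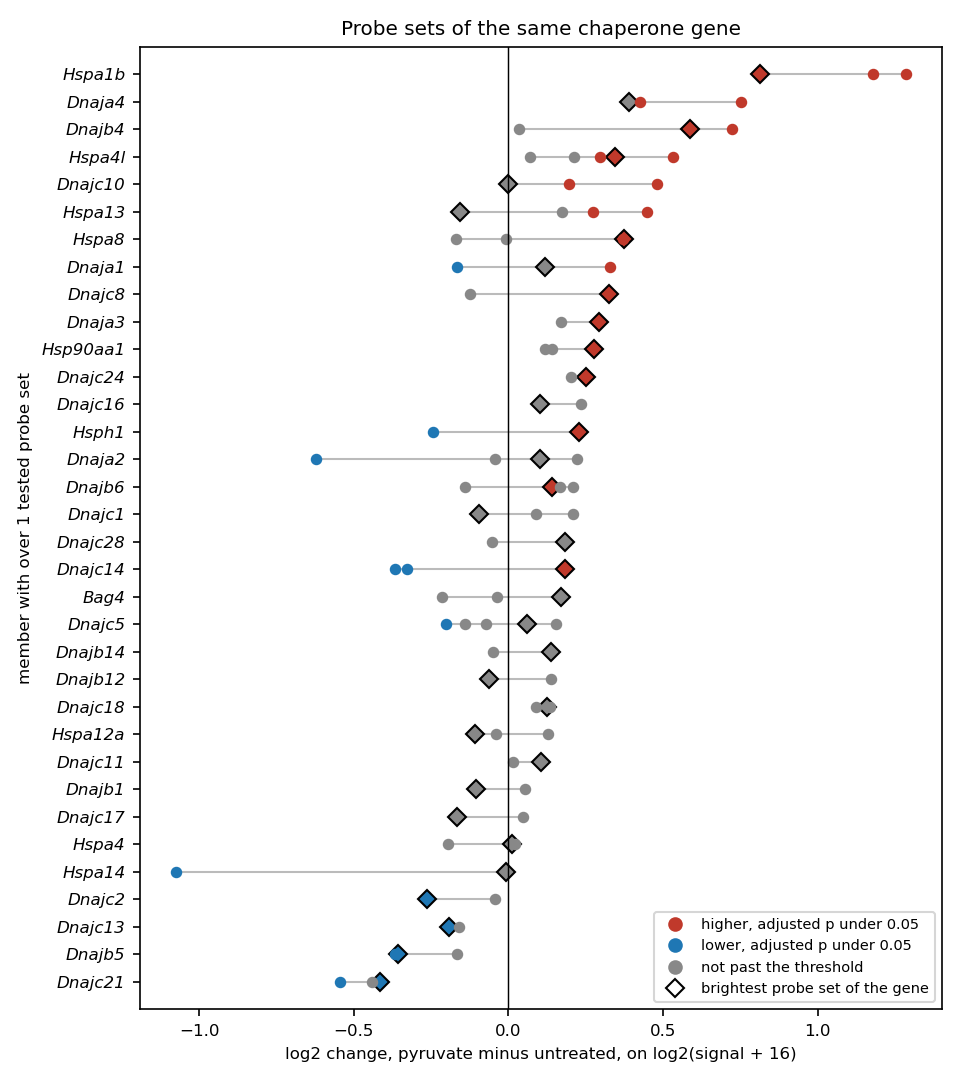
Log2 change (x axis, pyruvate minus untreated) of every tested probe set of the 34 members with over 1, red where higher and blue where lower at an adjusted p under 0.05, with a diamond for the brightest. All Hspa1b probe sets lie right of 0.8, while Hsph1, Dnaja1 and Dnajc14 have red and blue points on the same row and 1 Hspa14 probe set lies at -1.07.

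HSP90 was represented by Hsp90aa1, the stress-inducible cytosolic isoform. Its brightest probe set read 3412, 3635 and 3435 in untreated and 4124, 4540 and 4053 in pyruvate cells, without overlap (0.28, SE 0.06, limma adjusted p = 0.0031). The other tested probe sets were at 0.12 (adjusted p = 0.17) and 0.14 (adjusted p = 0.052). After quantile normalization the brightest was at 0.03 (adjusted p = 0.58) and the others were lower, at -0.13 (adjusted p = 0.038) and -0.10 (adjusted p = 0.046). The call for Hsp90aa1 thus rested on the scaling.

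**Figure D4:**
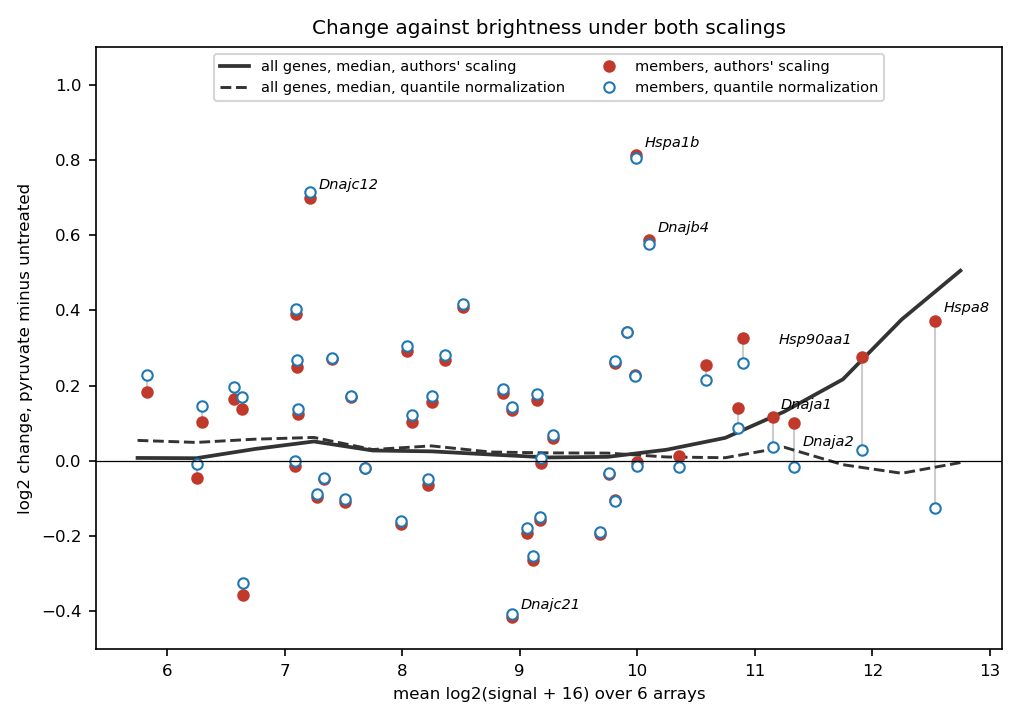
Log2 change with pyruvate (y axis) against the mean log2(signal + 16) over 6 arrays (x axis) for the 50 tested members, red under the authors' scaling and open blue after quantile normalization; lines give the median of all genes in steps of 0.5. Below a level of 10 both points of a member nearly coincide, and at the bright end Hspa8 goes from 0.37 to -0.12 and Hsp90aa1 from 0.28 to 0.03.

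Hsf2, the heat shock factor active in development, was near the floor of the arrays. Its brighter probe set read 33.1, 29.8 and 25.0 in untreated and 24.3, 29.0 and 26.7 in pyruvate cells, below the filter and overlapping. Without the filter it was at -0.08 and had no call. Among other genes tied to the heat shock factors, 1 of 3 tested rose and 1 fell: Hsbp1, which binds trimers of heat shock factor 1, rose by 0.29 (adjusted p = 0.0018), and Ssbp1, chiefly a mitochondrial DNA-binding protein, fell by 0.59 (adjusted p = 9.8e-05).

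Partners of the chaperones were read from fixed lists. The counts of these lists, here and below, stand beside 20.7% of all genes tested that rose and 14.5% that fell. Of 29 listed co-chaperones of HSP90 and HSP70, 24 were tested, 5 rose and 2 fell, with a median of 0.09. That is 20.8% higher, near the share of all genes, and 8.33% lower. After quantile normalization 8 rose and 3 fell. Ahsa1, which stimulates the HSP90 ATPase, rose by 0.27 (adjusted p = 0.00096) and Sgta, of the same triage system as Bag6, by 0.25 (adjusted p = 0.0060). Fnip1, a folliculin partner that slows HSP90, fell by 0.46 (adjusted p = 0.00036). Stip1, the adaptor between HSP70 and HSP90, was at 866 ± 29.0 and 823 ± 31.3 and did not pass (adjusted p = 0.32). Unc45b, the myosin chaperone of muscle, was listed at 23.0, 21.9 and 22.7 in untreated and 0.90, 1.00 and 0.70 in pyruvate cells, below the filter.

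In the CCT chaperonin and prefoldin list, which folds actin and tubulin, 2 of 15 tested rose and 3 fell, with a median of 0.02. After quantile normalization 0 rose and 6 fell in limma, with a median of -0.11. Vbp1, a prefoldin subunit, fell by 0.27 (adjusted p = 0.0018) and Cct8 by 0.25 (adjusted p = 0.0088), whereas Cct2 was at 0.23 (adjusted p = 0.016) as scaled and at -0.16 after quantile normalization (adjusted p = 0.0043). Of 10 tested clearance partners of BAG and HSP70, 4 rose and 3 fell. The ubiquitin-conjugating enzymes Ube2d2a and Ube2d1, which can work with CHIP, fell by 0.61 (adjusted p = 0.0024) and 0.58 (adjusted p = 5.7e-06). Ubqln2, a shuttle to the proteasome, fell by 0.45 (adjusted p = 0.0014). The 4 that rose included Ube2d3, of the same enzyme family, by 0.41 (adjusted p = 0.00063), and Sqstm1 by 0.33 (adjusted p = 0.00030). The others were Stub1 (CHIP) at 0.17 (adjusted p = 0.022) and Vcp at 0.17 (adjusted p = 0.037). Quantile normalization ended the Vcp call (-0.03, adjusted p = 0.70).

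The small heat shock proteins, which hold clients for HSP70, had 4 of 5 tested genes higher and 1 lower (3 and 0 after quantile normalization, which took Hspb1 from 0.53 to -0.01), with Hspb6 rising from 191 ± 8.05 to 494 ± 22.7 (1.30, adjusted p = 1.7e-07). Of 10 compartment paralogs and mitochondrial or endoplasmic reticulum chaperones, 3 rose and 2 fell, but after quantile normalization 1 rose and 3 fell. Dnajc3, an inhibitor of eIF2alpha kinases, fell by 0.52 (adjusted p = 4.4e-05), Dnajb9, a J protein of BiP, by 0.27 (adjusted p = 0.0055), and Dnajb11, another, rose by 0.21 (adjusted p = 0.019).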

How the data were processed

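Each array's deposited file lists an intensity for every probe set, linear and made with MAS5 according to the submitters' processing notes, which give no version or settings. The authors had scaled each array to a trimmed mean of 150, which was kept. Scaling hides changes in total RNA per cell. Of 45101 probe sets 64 controls were left out. Symbols came from the platform annotation, and all 61 members matched a RefSeq gene (GRCm38.p6) by Entrez identifier under the same symbol. The rule's Hsp90a was read as Hsp90aa or Hsp90ab followed by a number.

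Signals were taken as log2(signal + 16), so folds of dim genes are understated. Probe sets with a mean at or above the median (5.53, a signal of 30.3) were tested, 22519 in all. A gene is its brightest probe set. The fit of pyruvate against untreated used limma 3.58.1 under R 4.3.3 (eBayes with trend, two-sided, no block), adjusted by Benjamini-Hochberg across the tested probe sets, with a threshold of 0.05. Every adjusted p comes from limma, in this fit unless another normalization or filter is named beside it. The model was also run on simulated data. That simulation had independent noise, few changed probe sets and no shift of bright genes, so it cannot speak for the calls here. Labels do not say whether samples were separate cultures, so p-values measure the spread between samples, which may be technical. The number of arrays limits the precision.

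Members and lists were chosen with earlier results of these data known. Named members are a list of well-known chaperones, up to 10 called members in each direction whose groups do not overlap (4 were lower), and members with probe sets called in both directions. From each partner list come the 3 called genes with the largest change, and the text gives a selection of these. Bag4 to Bag6, Stip1, Unc45b, Ube2d3, Sqstm1, Stub1, Vcp and the remaining members were named after their values were seen. Alternatives were other pseudocounts, filters, scalings, variance settings and probe set rules, a replicate block, and each array left out. Promoter windows are RefSeq's, with 49 members matched. Figures used matplotlib 3.10.9.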

Additional observations from a re-analysis of the deposited data

How the results depend on the processing

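The count of members that rose kept within 1.5 times of 18 under all 12 alternatives that use every array, and was 12 to 15 with 1 array left out. The genes in it changed more: with each gene the average of its probe sets 17 rose, only 12 of them among the 18. Dnajb6, Dnajc8, Dnajc24, Hspa8 and Hsph1 then lost their calls and Dnajc14 was called lower, while Bag3, Dnaja4, Dnajb2, Dnajc10 and Hspa13 came in. The count that fell, 5 of 50, was 2 without the signal filter, 2 without the variance trend and 2 to 4 with 1 array left out. It was 7, with Dnajc14 and Hspa14 added, when each gene was the average of its probe sets. The members' median change of 0.13 was 0.10 with a pseudocount of 64, 0.10 without the filter, 0.10 after quantile normalization, 0.080 when each gene was the average of its probe sets, and 0.12 to 0.13 with 1 array left out. Counts over all genes were 1669 to 2086 higher and 1154 to 1551 lower with 1 array left out. The sign turned after quantile normalization for Hspa8 (-0.12), Hspa4 (-0.017) and Dnaja2 (-0.016), and after cyclic loess for Hspa4 (-0.059), Dnaja2 (-0.027) and Dnaja1 (-0.00019). Averaging probe sets turned it for Hspa4 (-0.055), Hsph1 (-0.0084), Dnaja2 (-0.086) and Dnajc14 (-0.17). Hspa4 ranged from -0.033 to 0.047 with 1 array left out, and was negative without untreated replicate 1 or pyruvate replicate 2. Apart from these 12 values, 41 of the named members' values lost their call, 1 gained one and 378 kept both; the cause was not tested.

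Samples with the same replicate number did not deviate together (correlations of -0.01, 0.01 and 0.02), so the numbers were not taken as pairs; with the replicate block 17 members rose and 5 fell. Leaving out an array lost 5 to 8 of the 23 calls, most often of Dnajc24, Bag6 and Dnajc13. Of the 23, 9 were called the same way under every setting.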
